A study of Homo sapiens with 6 samples.

Results

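The genes described here are 2 interferons, IFNB1 and IFNL1, and 52 interferon-stimulated genes, which are genes whose transcription interferons are known to raise. The 54 members were chosen by name, as a list of interferons and well-known interferon-stimulated genes. All 54 were among the 16197 genes of the deposited table. RNA was sequenced from Panc1 cells, an established line of human pancreatic carcinoma grown in DMEM with serum, in 3 libraries given BRQ and 3 libraries given the solvent DMSO. BRQ is read here as brequinar, since the title of the series speaks of a DHODH inhibitor. DHODH is the enzyme that makes orotate for pyrimidine nucleotides. The labels name no interferon, virus or other stimulus in either group, and the sources used here give neither the dose nor the time of exposure. Whether the 3 libraries of a group are separate cultures is not stated either, so p-values speak only for the spread among these 6 libraries and part or all of it may be technical.

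Interferons are secreted proteins that cells make when sensors such as MDA5 or RIG-I meet foreign RNA. Interferon beta binds the receptor IFNAR1/IFNAR2, and the lambda interferons bind IFNLR1/IL10RB. Both receptors act through the kinases JAK1 and TYK2 to join STAT proteins and IRF9 into the factor ISGF3, which binds a DNA element called ISRE in the promoters of its target genes. The targets include enzymes that degrade or modify RNA, proteins that trap viral RNA or block viral entry, and ISG15, a small protein that is attached to other proteins. In tumour cell lines some of these genes can be expressed without added interferon.

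Levels are given as FPKM, fragments scaled to the length of the gene and to the total of the library, with library values in the order 1, 2 and 3 and means with their SD (n = 3 per group). Log2 fold changes are given ± SE. The low values of the deposited table fall on steps of 1 fragment, and these steps gave relative depths of 1.02, 1.03 and 1.03 in BRQ libraries, against 0.977, 0.958 and 0.986 in DMSO libraries. The values of all 54 members corresponded to whole fragments within a tolerance of 0.01 of a fragment. The smallest whole numbers that did so ran between 32 and 83 fragments per library for IFNB1, between 174 and 423 for RTP4, and reached 51912 for ISG15 and 68226 for OASL. The epithelial keratins KRT8, KRT18 and KRT19 were at 558 FPKM or more in every library, and PTPRC, which marks leukocytes, was at 0.153 FPKM or less. CDKN2A, which Panc1 is generally described as lacking, was at 31.0 to 49.4 FPKM, so the identity of the cells was not settled by these files. BRQ libraries 1 and 2 held haemoglobin HBB at 64.2 and 32.8 FPKM, against 0.739 FPKM in BRQ library 3 and 0.0488 to 0.677 FPKM in DMSO. The 4 red-cell markers summed to 1.85 to 88.7 FPKM in BRQ, against 0.581 to 2.01 FPKM in DMSO, and results without both libraries rest on 1 BRQ library whose spread is assumed to be that of DMSO. Of 8 immune markers 6 were under 1 FPKM in every library, while CD68 brought their sum to 157 to 166 FPKM in BRQ, against 107 to 114 FPKM in DMSO. LILRA4, a marker of plasmacytoid dendritic cells, the main interferon producers of blood, was listed at 0 in 4 libraries and at 0.0320 FPKM at most. Among other markers CDH1, the epithelial cadherin, stood at 4.03 to 6.10 FPKM over all libraries. VIM, a mesenchymal intermediate filament, was at 865 to 903 FPKM in BRQ, against 1849 to 1902 FPKM in DMSO, and LUM, a fibroblast proteoglycan, was at 76.8 to 81.5 FPKM in BRQ, against 51.6 to 53.4 FPKM in DMSO. Of 5 fibroblast markers LUM was the only 1 at 1 FPKM or more in every library, as was VIM of 3 mesenchymal markers. Among the others, 3 fibroblast markers and 1 mesenchymal marker were under 1 FPKM in every library. The part of VIM-, LUM- or CD68-expressing cells in the changes described was not tested.

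The members moved in both directions under BRQ. Of the 54 members, all of which passed the filter of a mean of 1 FPKM, 26 were higher in BRQ, 18 were lower and 10 did not pass an adjusted p of 0.05 in limma over all tested genes, with Benjamini-Hochberg adjustment. Of all 10689 tested genes, 62.1% passed in either direction, 36.9% were higher and 25.2% were lower, whereas the members called were 81.5%, with 48.1% higher and 33.3% lower. These shares were not tested against each other, and tested genes at 10 FPKM or more in DMSO, where most members lie, were called more often, 40.7% higher and 27.9% lower. A log2 fold change of at least 0.4, on the scale of log2(FPKM + 1), was reached by 11 members (20.4%) in the higher direction and 8 (14.8%) in the lower one, against 16.8% and 10.1% of tested genes. The 3 libraries of one group did not overlap those of the other for 45 members (83.3%), of which 27 lay above and 18 below. Of all tested genes 67.2% had no overlap. At 10 FPKM or more in DMSO, 3959 of 5408 tested genes and 40 of 48 members (83.3%) had none. The median log2 fold change was 0.09 over the members and 0.06 over all tested genes, and its SD was 0.39 over both. The counts depended on the scaling of the libraries. They became 22 higher and 21 lower with median-of-ratios or trimmed-mean scaling, and 21 higher and 20 lower with TPM scaling, which moved the median of all genes by -0.05 to -0.06. Of all genes called, 59.4% were higher, against 50.3% to 51.7% under those scalings. Leaving out BRQ libraries 1 and 2 leaves 1 BRQ library, so counts of calls from that fit are not compared with these. The annotated spans of 20 members overlap that of another gene, and the strand of the libraries was not stated, so their values may hold reads of that gene.

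**Figure D1:**
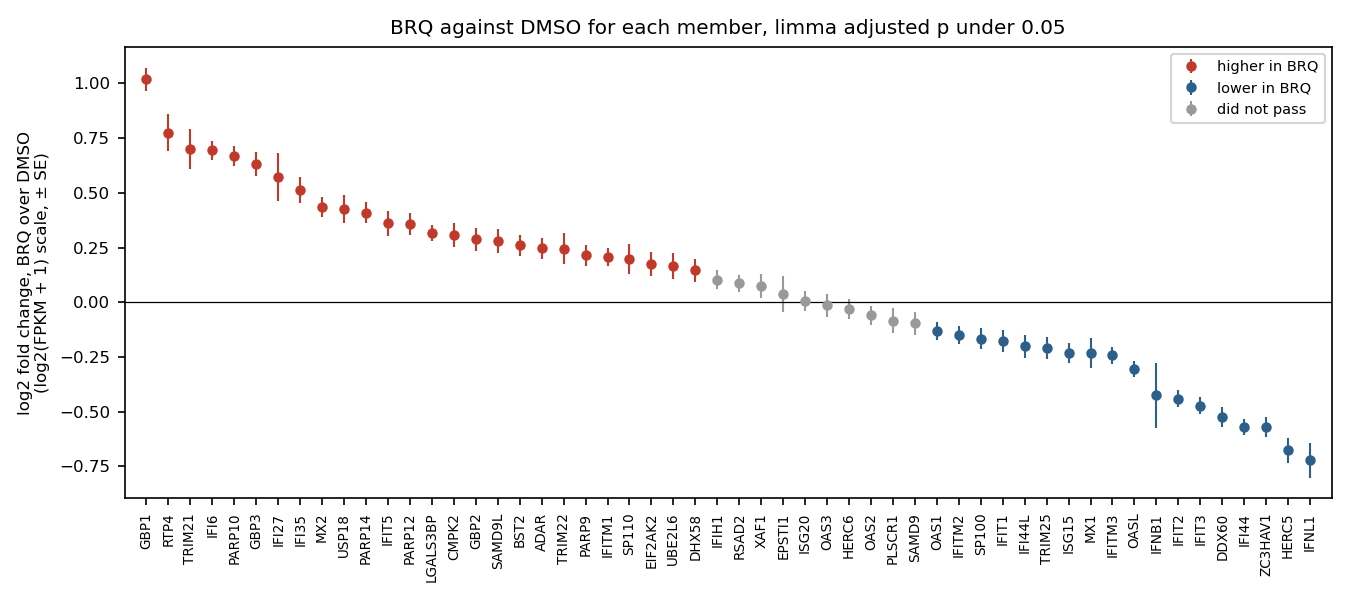
The log2 fold change of each member (y axis, BRQ relative to DMSO, from log2(FPKM + 1), error bars ± SE) is drawn with the members ordered by their change, and colours give the limma call. The 26 members above the line that passed the threshold run from GBP1 at 1.02 to DHX58 at 0.15, and the 18 below it run from OAS1 at -0.13 to IFNL1 at -0.72.

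Many members were expressed strongly without any stimulus named in the labels. The median member stood at 50.04 FPKM in DMSO, against 10.2 FPKM for the median tested gene, and 48 members reached 10 FPKM in DMSO (88.9%, against 50.6% of tested genes). At least 100 FPKM were reached by 19 members, or 35.2%, against 5.41% of tested genes. ISG15 ranked 6 among the 16197 genes of the table by its mean in DMSO, OASL ranked 40, IFITM3 ranked 50 and LGALS3BP ranked 92. IFNB1, EPSTI1, RTP4 and MX1 were the members under 5 FPKM in DMSO. All members added up to 9027, 8757 and 8795 FPKM in BRQ, against 9204, 9100.3 and 8992 FPKM in DMSO. As a share of the FPKM of all genes they held 2.33, 2.35 and 2.36% in BRQ, against 2.52, 2.50 and 2.52% in DMSO, with no overlap. ISG15 alone held 0.574, 0.558 and 0.548% in BRQ, against 0.683, 0.692 and 0.677% in DMSO. Without ISG15 the members held 1.79% ± 0.0310 of the FPKM of all genes in BRQ and 1.83% ± 0.0181 in DMSO (SD, n = 3 each), and the libraries overlapped. In bulk RNA, fewer cells that express a gene and less RNA of it per cell cannot be told apart.

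**Figure D2:**
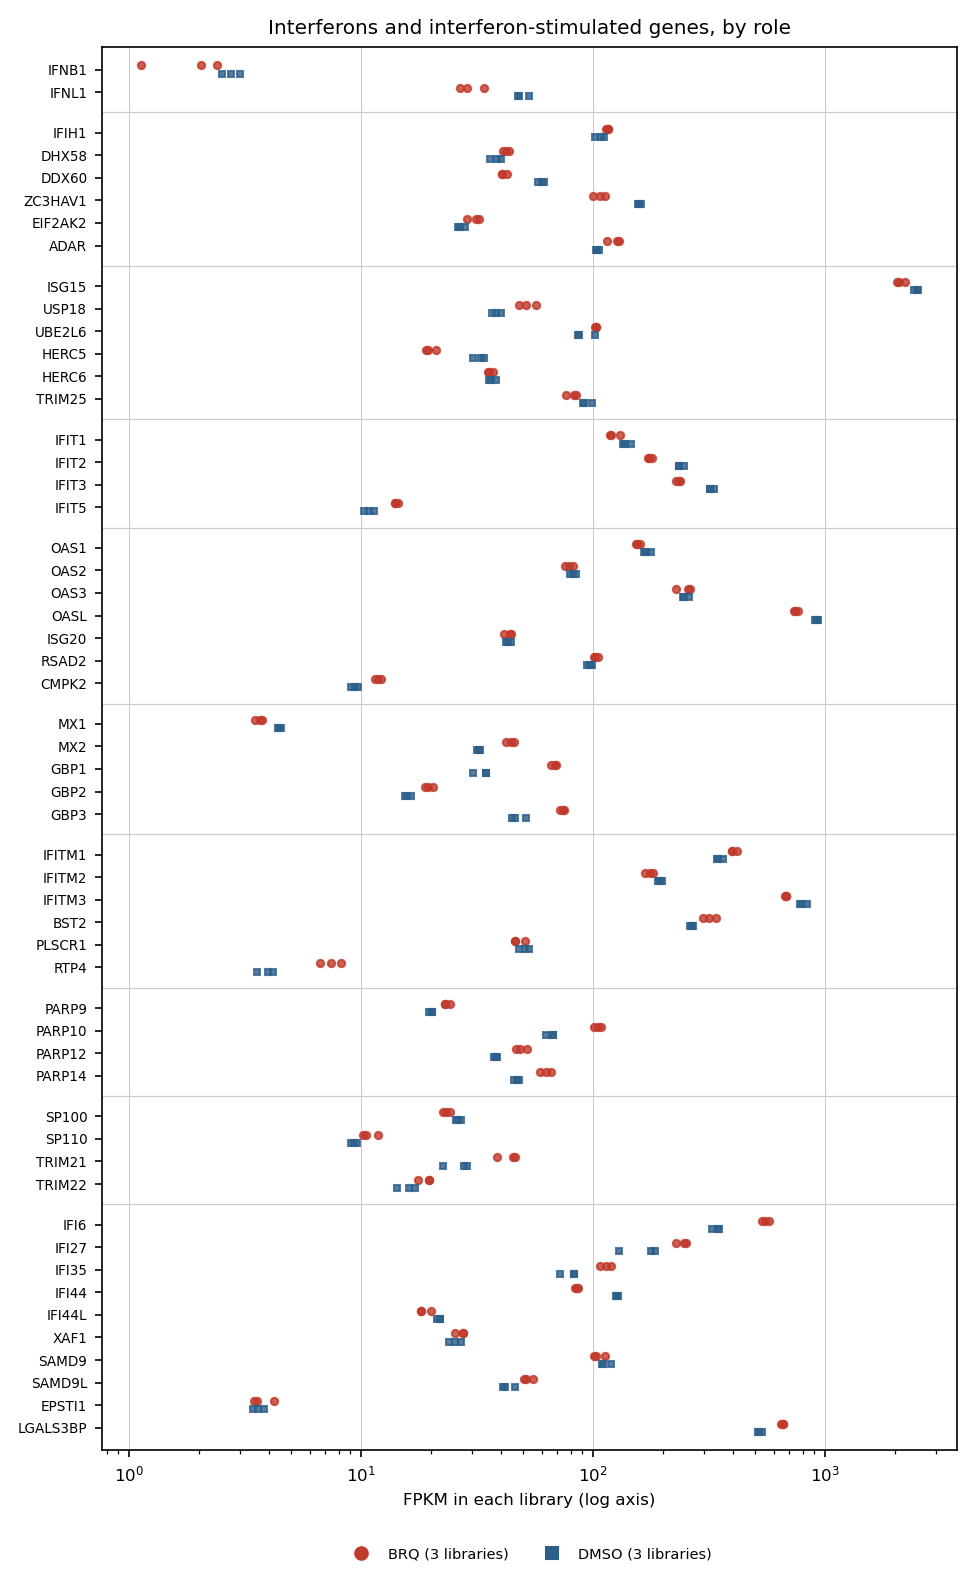
FPKM of each member (x axis, log scale) is drawn for each of the 3 BRQ libraries (circles) and 3 DMSO libraries (squares), with members grouped by role. ISG15 stands at the far right at 2039 FPKM or more in every library, and IFNB1 at the far left at 3.01 FPKM or less. The groups of libraries lie apart for 45 of the 54 members, as they do for 67.2% of all tested genes.

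The ISRE core was found in promoters of members called in each direction. RefSeq promoters (GRCh38.p14, from 250 bases before to 50 bases after a transcript start) were found for 44 members. The ISRE core, searched as GAAANNGAAA on both strands, was in the promoters of 31 of them (70.5%), against 4.38% of 27305 genes. It was found in 14 of the 20 matched members that were higher, 10 of the 15 that were lower and 7 of the 9 that did not pass. The GAS core TTCNNNGAA, the element of interferon gamma signalling, was in 14 of the 44 (31.8%), against 9.38% of genes, and in 7 of the 20 higher, 5 of the 15 lower and 2 of the 9 that did not pass. A match is a description of these letters and not a site shown to be bound. Below are stretches around the ISRE cores of IFIT3, IFIT1, ISG15, HERC5 and IFI44, which were lower in BRQ, and of IFIT5, GBP1, RTP4, IFI6 and IFI27, which were higher. Each is written 5′ to 3′ along the gene's own strand, and capitals mark the core. A core on the other strand stands as its reverse complement, with TTTC in place of GAAA.
IFIT3, chr10:89327806-89327919, plus strand: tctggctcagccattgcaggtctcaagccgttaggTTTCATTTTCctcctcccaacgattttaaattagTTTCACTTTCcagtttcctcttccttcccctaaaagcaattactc
IFIT1, chr10:89392472-89392564, plus strand: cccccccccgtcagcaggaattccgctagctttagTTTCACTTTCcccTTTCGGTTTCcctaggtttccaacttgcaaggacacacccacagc
ISG15, chr1:1013349-1013434, plus strand: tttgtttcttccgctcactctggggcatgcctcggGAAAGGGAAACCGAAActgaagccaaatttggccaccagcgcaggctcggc
HERC5, chr4:88456959-88457089, plus strand: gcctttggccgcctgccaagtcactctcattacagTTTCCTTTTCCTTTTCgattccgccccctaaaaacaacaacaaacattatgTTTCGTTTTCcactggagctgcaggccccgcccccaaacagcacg
IFI44, chr1:78649736-78649788, plus strand: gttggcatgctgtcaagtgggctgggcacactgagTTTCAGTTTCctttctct
IFIT5, chr10:89414488-89414567, plus strand: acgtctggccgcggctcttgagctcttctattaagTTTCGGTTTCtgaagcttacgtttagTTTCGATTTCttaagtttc
GBP1, chr1:89065291-89065370, minus strand: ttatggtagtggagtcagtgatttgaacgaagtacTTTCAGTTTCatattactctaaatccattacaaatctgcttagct
RTP4, chr3:187368308-187368384, plus strand: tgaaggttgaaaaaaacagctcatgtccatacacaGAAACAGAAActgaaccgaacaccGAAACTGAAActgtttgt
IFI6, chr1:27672241-27672383, minus strand: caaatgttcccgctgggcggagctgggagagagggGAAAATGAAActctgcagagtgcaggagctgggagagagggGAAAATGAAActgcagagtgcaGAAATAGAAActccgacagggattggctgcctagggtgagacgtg
IFI27, chr14:94110593-94110685, plus strand: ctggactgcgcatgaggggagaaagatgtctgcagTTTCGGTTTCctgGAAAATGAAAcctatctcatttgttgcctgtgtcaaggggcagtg
The number of cores ran between 1 and 3 both in the lower and in the higher members. The core nearest to the transcript start used for the promoter began 18 bases before it in IFI44 and in RTP4, 19 in IFIT5 and 127 in GBP1. It began 107 bases before the start in ISG15, 122 in IFIT3, 103 in IFIT1, 74 in HERC5, 93 in IFI6 and 95 in IFI27. For IFI27 that start lies inside the annotated gene span, whereas for the other 9 it is the end of the span.

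Both interferons were lower in BRQ. IFNL1 (chr19:39296407-39298673), a lambda interferon that acts mainly on epithelial cells, was at 34.1, 26.7 and 28.5 FPKM in BRQ, against 53.0, 47.9 and 47.6 FPKM in DMSO (log2 fold change -0.72 ± 0.08, adjusted p = 2.05e-05). All 3 BRQ libraries lay below all 3 DMSO libraries, and on the log2(FPKM + 1) scale this was the largest decrease among the 54 members. IFNB1 (chr9:21077104-21077942), the interferon beta gene, was at 1.12, 2.05 and 2.39 FPKM in BRQ, against 2.52, 2.76 and 3.01 FPKM in DMSO (log2 fold change -0.43 ± 0.15, adjusted p = 0.0273). The groups did not overlap, but BRQ library 1 stood well below the other 2. The values correspond to 32, 59 and 69 fragments in BRQ, against 69, 74 and 83 fragments in DMSO, the smallest whole numbers that fit. The IFNB1 call rested on single libraries. It was lost without BRQ library 1 (log2 fold change -0.23, adjusted p = 0.0638), without DMSO library 2 (adjusted p = 0.0597), without DMSO library 3 (adjusted p = 0.0756), with no filter (adjusted p = 0.114) and without BRQ libraries 1 and 2 (log2 fold change -0.15, adjusted p = 0.335). With the trend of values along gene span taken out, it was -0.67 (adjusted p = 0.00595).

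Of the 6 RNA sensors and RNA-binding proteins, 3 were higher, 2 were lower and 1 did not pass. Counts by role, here and below, stand beside 36.9% higher, 25.2% lower and 67.2% without overlap among all tested genes. ZC3HAV1, which encodes the zinc-finger antiviral protein that binds CpG-rich viral RNA, was at 99.7, 107 and 112 FPKM in BRQ, against 158, 156 and 160.3 FPKM in DMSO (log2 fold change -0.57 ± 0.05, adjusted p = 2.35e-06). DDX60, a helicase tied to RNA sensing, was at 40.5, 40.6 and 42.7 FPKM in BRQ, against 57.6, 60.2 and 61.5 FPKM in DMSO (log2 fold change -0.52 ± 0.04, adjusted p = 3.15e-06). Every BRQ library of both genes lay below every DMSO library. ADAR, which edits adenosine to inosine in double-stranded RNA, was higher, at 115, 127 and 129.8 FPKM in BRQ, against 103, 104 and 106 FPKM in DMSO (log2 fold change 0.25 ± 0.05, adjusted p = 0.00108). IFIH1, which encodes the sensor MDA5, was at 116, 113 and 116 FPKM in BRQ, against 111, 102 and 109 FPKM in DMSO. Its BRQ libraries lay just above the DMSO libraries but the difference did not pass (log2 fold change 0.10 ± 0.04, adjusted p = 0.0596). It passed without DMSO library 1 (adjusted p = 0.0447) and with a fitted trend of each library's values along gene span taken out (adjusted p = 0.0261). Under the 3 other scalings the IFIH1 log2 fold change was 0.04 (adjusted p of 0.389 to 0.478), and without DMSO library 2 it was 0.06 (adjusted p = 0.25). DHX58, which encodes LGP2, a helicase that modulates MDA5, had 42.3 ± 1.24 FPKM in BRQ and 38.2 ± 2.24 FPKM in DMSO (log2 fold change 0.15 ± 0.05, adjusted p = 0.0295). EIF2AK2, which encodes the kinase PKR that halts translation on double-stranded RNA, had 30.7 ± 1.98 FPKM in BRQ and 27.1 ± 0.911 FPKM in DMSO (log2 fold change 0.17 ± 0.06, adjusted p = 0.0185). Both calls were small and were lost under the 3 other scalings, with adjusted p of 0.160 to 0.189 for DHX58 and 0.108 to 0.134 for EIF2AK2. They were also lost without single libraries, DHX58 without BRQ library 1 or 2 or DMSO library 1 or 3 (adjusted p up to 0.127) and EIF2AK2 without BRQ library 2 or 3 or DMSO library 1 or 2 (adjusted p up to 0.0778). DHX58 was also lost with no filter (adjusted p = 0.0567), with the span trend taken out (0.04, adjusted p = 0.546) and without BRQ libraries 1 and 2 (adjusted p = 0.256).

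The 6 genes of the ISG15 system went both ways, with 2 higher, 3 lower and 1 not passing. ISG15 (chr1:1013497-1014540), the ubiquitin-like protein itself, was at 2224, 2079 and 2039 FPKM in BRQ, against 2500.0, 2521 and 2419.9 FPKM in DMSO (log2 fold change -0.23 ± 0.05, adjusted p = 0.00108). It was lower in each BRQ library than in each DMSO library, and its log2 fold change was -0.46 with the span trend taken out (adjusted p = 4.25e-07). HERC5, the main ligase that joins ISG15 to newly made proteins, was at 21.1, 19.0 and 19.4 FPKM in BRQ, against 32.8, 33.8 and 30.2 FPKM in DMSO (log2 fold change -0.68 ± 0.06, adjusted p = 3.57e-06), again with no overlap. HERC5 had the second largest decrease of the members. TRIM25, a ubiquitin ligase that also acts on RIG-I, was lower as well (81.0 ± 4.27 FPKM in BRQ and 93.8 ± 4.60 FPKM in DMSO, log2 fold change -0.21 ± 0.05, adjusted p = 0.00442), but not past the threshold without BRQ libraries 1 and 2 (adjusted p = 0.0660). USP18, the protease that removes ISG15 and damps signalling at IFNAR2, was higher, at 57.0, 51.4 and 47.9 FPKM in BRQ, against 40.3, 36.9 and 38.2 FPKM in DMSO (log2 fold change 0.43 ± 0.06, adjusted p = 1.64e-04). UBE2L6, the conjugating enzyme of ISG15, had 103 ± 0.684 FPKM in BRQ and 92.0 ± 8.98 FPKM in DMSO (log2 fold change 0.16 ± 0.06, adjusted p = 0.0331), and its groups overlapped. The UBE2L6 call was lost under the 3 other scalings (adjusted p of 0.114 to 0.166) and without any library but DMSO library 1 (adjusted p of 0.0583 to 0.136). It was also lost with no filter (adjusted p = 0.103), with the span trend taken out (0.07, adjusted p = 0.342) and without BRQ libraries 1 and 2 (adjusted p = 0.136). HERC6, which neighbours HERC5, did not pass (36.0 ± 0.850 FPKM in BRQ and 36.8 ± 1.24 FPKM in DMSO, log2 fold change -0.03 ± 0.05, adjusted p = 0.579). The HERC6 to HERC5 ratio was 1.69, 1.86 and 1.90 in BRQ, against 1.16, 1.08 and 1.18 in DMSO. The annotated locus LOC102723458 overlaps both genes and could share reads with each.

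The IFIT genes lie side by side on chromosome 10 (chr10:89302046-89420997), and 3 were lower while IFIT5 was higher. IFIT proteins bind viral RNA that lacks the host's cap methylation or carries a 5′ triphosphate. IFIT3, which stabilises IFIT1, was at 236, 228 and 235 FPKM in BRQ, against 332, 320.2 and 319 FPKM in DMSO (log2 fold change -0.47 ± 0.04, adjusted p = 1.90e-06). IFIT2 was at 175, 173 and 179.5 FPKM in BRQ, against 235, 235 and 246 FPKM in DMSO (log2 fold change -0.44 ± 0.04, adjusted p = 3.70e-06). IFIT1 was at 131, 119 and 119 FPKM in BRQ, against 146, 135 and 137 FPKM in DMSO (log2 fold change -0.18 ± 0.05, adjusted p = 0.00888). In each of these the BRQ libraries lay below the DMSO libraries, and with the span trend taken out IFIT1 was at -0.28 on the log2 scale (adjusted p = 3.10e-04). IFIT5 was at 14.0, 14.5 and 14.0 FPKM in BRQ, against 11.4, 10.3 and 10.8 FPKM in DMSO (log2 fold change 0.36 ± 0.06, adjusted p = 2.58e-04), with the groups apart in the other direction. The ratio of IFIT3 to IFIT5 was 16.9, 15.8 and 16.8 in BRQ, against 29.2, 31.2 and 29.6 in DMSO. The stretches printed above hold 2 ISRE cores in each of IFIT3, IFIT1 and IFIT5. The annotated span of LIPA overlaps all 4 IFIT genes, so reads of LIPA could be counted with them.

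Among the OAS genes, OASL and OAS1 were lower and the other 2 did not pass. OAS1, OAS2 and OAS3 make 2-5-linked oligoadenylate on double-stranded RNA, a signal for RNA decay, whereas OASL lacks that activity and aids RIG-I. OASL was at 762, 746 and 737 FPKM in BRQ, against 937, 927 and 908 FPKM in DMSO (log2 fold change -0.30 ± 0.04, adjusted p = 4.03e-05), with no overlap. OAS1 was at 159, 153 and 155 FPKM in BRQ, against 177, 166 and 169 FPKM in DMSO (log2 fold change -0.13 ± 0.04, adjusted p = 0.0144). The OAS1 call did not hold without BRQ library 2, where the adjusted p was at the threshold, without DMSO library 1 (adjusted p = 0.0706) or without BRQ libraries 1 and 2 (adjusted p = 0.0589). Median-of-ratios scaling and the removal of the span trend both gave a log2 fold change of -0.20 (adjusted p = 0.00105 and 8.17e-04). OAS3 was at 227, 261 and 256 FPKM in BRQ, against 244, 248 and 258 FPKM in DMSO (log2 fold change -0.01 ± 0.05, adjusted p = 0.827), and BRQ library 1 lay below and BRQ library 2 above all DMSO libraries. OAS2 had 78.8 ± 3.35 FPKM in BRQ and 82.2 ± 2.27 FPKM in DMSO (log2 fold change -0.06 ± 0.04, adjusted p = 0.259), and passed as lower under the 3 other scalings (adjusted p of 0.0271 to 0.0409). Of the 3 other enzymes, CMPK2, a mitochondrial nucleotide kinase, was higher (11.8 ± 0.299 FPKM in BRQ and 9.37 ± 0.322 FPKM in DMSO, log2 fold change 0.31 ± 0.06, adjusted p = 7.22e-04). RSAD2, which encodes viperin and turns CTP into a chain terminator, had 103 ± 1.86 FPKM in BRQ and 96.6 ± 2.49 FPKM in DMSO and did not pass (log2 fold change 0.09 ± 0.04, adjusted p = 0.0734). The 2 genes share part of their span, so reads there cannot be told apart without strand. ISG20, an RNA exonuclease, had 43.3 ± 1.56 FPKM in BRQ and 43.1 ± 1.12 FPKM in DMSO (log2 fold change 0.00 ± 0.05, adjusted p = 0.936), and the sign of that difference turned under the 3 other scalings.

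Of the 5 GTPases, 4 were higher. GBP1 (chr1:89052319-89065208), a guanylate-binding protein that coats intracellular bacteria and vacuoles and answers strongly to interferon gamma, was at 69.2, 66.2 and 68.4 FPKM in BRQ, against 34.5, 34.4 and 30.3 FPKM in DMSO (log2 fold change 1.02 ± 0.05, adjusted p = 1.82e-07). Its 3 BRQ libraries lay far above the 3 DMSO libraries, and the increase was the largest among the 54 members. GBP3, of the same family, was at 74.9, 71.8 and 74.4 FPKM in BRQ, against 51.4, 46.0 and 44.5 FPKM in DMSO (log2 fold change 0.63 ± 0.05, adjusted p = 3.44e-06). GBP2 had 19.6 ± 0.741 FPKM in BRQ and 15.9 ± 0.492 FPKM in DMSO (log2 fold change 0.29 ± 0.05, adjusted p = 6.66e-04). MX2, a nuclear-envelope GTPase that restricts HIV, was at 42.1, 44.1 and 45.6 FPKM in BRQ, against 32.7, 32.4 and 31.6 FPKM in DMSO (log2 fold change 0.44 ± 0.05, adjusted p = 1.35e-05). In all 4 the groups did not overlap. MX1, its cytoplasmic relative that restricts influenza virus, was lower (3.63 ± 0.114 FPKM in BRQ and 4.44 ± 0.0566 FPKM in DMSO, log2 fold change -0.23 ± 0.07, adjusted p = 0.0112), but not past the threshold without BRQ libraries 1 and 2 (adjusted p = 0.0973). The ratio of MX2 to MX1 was 11.3, 12.6 and 12.4 in BRQ, against 7.27, 7.39 and 7.12 in DMSO. GBP genes resemble one another closely, and reads could be split between them.

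The 6 membrane proteins divided as 3 higher, 2 lower and 1 not passing. IFITM1, IFITM2 and IFITM3 (chr11:307816-320860) block the fusion of viruses with cell membranes, IFITM1 mostly at the surface and its relatives in endosomes. IFITM1 was at 416, 398 and 399 FPKM in BRQ, against 364, 344 and 343 FPKM in DMSO (log2 fold change 0.21 ± 0.04, adjusted p = 0.00107), above DMSO in every library. IFITM3 was at 676, 679 and 680.0 FPKM in BRQ, against 834, 793 and 782 FPKM in DMSO (log2 fold change -0.24 ± 0.04, adjusted p = 2.87e-04). IFITM2 was at 181, 168 and 176 FPKM in BRQ, against 198, 194 and 190.0 FPKM in DMSO (log2 fold change -0.15 ± 0.04, adjusted p = 0.00846). IFITM2 and IFITM3 were below DMSO in every BRQ library. With the trend of values along gene span taken out, their log2 fold changes were -0.35 (adjusted p = 1.70e-05) for IFITM2 and -0.46 (adjusted p = 2.14e-06) for IFITM3. The 3 genes are closely alike in their coding sequence, so the counting could have split reads between them, and the higher call of IFITM1 ended with the span trend taken out (-0.01 on the log2 scale, adjusted p = 0.844). BST2, which encodes tetherin and holds budding virions at the cell, was at 339, 317 and 299 FPKM in BRQ, against 266, 269 and 261 FPKM in DMSO (log2 fold change 0.26 ± 0.05, adjusted p = 7.42e-04). The BST2 change was 0.10 with the span trend taken out (adjusted p = 0.0356) and 0.17 without BRQ libraries 1 and 2 (adjusted p = 0.0155). RTP4, a chaperone of receptors, was at 7.40, 6.65 and 8.18 FPKM in BRQ, against 3.56, 3.98 and 4.19 FPKM in DMSO (log2 fold change 0.77 ± 0.08, adjusted p = 1.84e-05), the second largest increase of the members on 377, 343 and 423 fragments in BRQ, against 174, 191 and 207 fragments in DMSO. The libraries of BST2 and RTP4 did not overlap. PLSCR1, a phospholipid scramblase, did not pass (47.7 ± 2.84 FPKM in BRQ and 50.6 ± 2.68 FPKM in DMSO, log2 fold change -0.08 ± 0.06, adjusted p = 0.209), although it passed as lower under 2 of the 3 other scalings and with the span trend taken out (adjusted p = 0.0479).

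All 4 PARP genes of the member list were higher, against 36.9% of all tested genes. These enzymes attach ADP-ribose to proteins or nucleic acids. PARP10, which adds single ADP-ribose units, was at 109, 105 and 101 FPKM in BRQ, against 67.3, 62.9 and 66.9 FPKM in DMSO (log2 fold change 0.67 ± 0.04, adjusted p = 6.02e-07). PARP14, a macrodomain PARP, was at 59.0, 62.8 and 66.0 FPKM in BRQ, against 46.9, 45.6 and 48.1 FPKM in DMSO (log2 fold change 0.41 ± 0.05, adjusted p = 3.65e-05). PARP12, a zinc-finger PARP, had 49.0 ± 2.85 FPKM in BRQ and 37.9 ± 0.584 FPKM in DMSO (log2 fold change 0.36 ± 0.05, adjusted p = 1.02e-04). PARP9, which acts with the ligase DTX3L, had 23.4 ± 0.616 FPKM in BRQ and 20.0 ± 0.408 FPKM in DMSO (log2 fold change 0.21 ± 0.05, adjusted p = 0.00244). None of the 4 had an overlap between the groups, as was the case for 67.2% of all tested genes. The spans of PARP9 and DTX3L overlap, as do those of PARP10 and GRINA.

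Of the nuclear-body and TRIM proteins, 3 were higher and 1 lower. TRIM21, the cytosolic antibody receptor and ubiquitin ligase, was at 46.0, 38.7 and 45.2 FPKM in BRQ, against 27.9, 22.5 and 28.7 FPKM in DMSO (log2 fold change 0.70 ± 0.09, adjusted p = 6.08e-05), with no overlap. TRIM22, a ligase active against several viruses, had 18.9 ± 1.20 FPKM in BRQ and 15.8 ± 1.37 FPKM in DMSO (log2 fold change 0.25 ± 0.07, adjusted p = 0.0105), and missed the threshold with TPM scaling (adjusted p = 0.0506) and with the span trend taken out (0.16, adjusted p = 0.0677). SP110, a nuclear-body protein, had 10.9 ± 0.888 FPKM in BRQ and 9.33 ± 0.294 FPKM in DMSO (log2 fold change 0.20 ± 0.07, adjusted p = 0.0239). The SP110 call was lost under the 3 other scalings (adjusted p of 0.0912 to 0.0976) and without BRQ library 3 (adjusted p = 0.103), DMSO library 2 (adjusted p = 0.0589) or DMSO library 3 (adjusted p = 0.0750), and was 0.32 without BRQ libraries 1 and 2 (adjusted p = 0.0109). SP100, a component of PML nuclear bodies, was lower (23.3 ± 0.819 FPKM in BRQ and 26.3 ± 0.617 FPKM in DMSO, log2 fold change -0.17 ± 0.05, adjusted p = 0.0106). Its direction turned with the span trend removed (log2 fold change 0.04, adjusted p = 0.477), and its call was lost without BRQ libraries 1 and 2 (adjusted p = 0.156).

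The remaining 10 members held some of the largest changes, 5 higher and 2 lower. IFI6 (chr1:27666064-27672192), a small membrane protein known to protect cells from flavivirus infection, was at 571, 533 and 549 FPKM in BRQ, against 346, 349 and 325 FPKM in DMSO (log2 fold change 0.70 ± 0.04, adjusted p = 4.25e-07). IFI27, its relative, was at 252, 247 and 228 FPKM in BRQ, against 129, 186 and 178 FPKM in DMSO (log2 fold change 0.57 ± 0.11, adjusted p = 9.46e-04). The groups of both were apart, and DMSO library 1 of IFI27 lay well below the other 2 DMSO libraries. IFI35, an interactor of NMI, was at 119, 107 and 114 FPKM in BRQ, against 83.0, 82.6 and 72.0 FPKM in DMSO (log2 fold change 0.51 ± 0.06, adjusted p = 3.08e-05). LGALS3BP, a secreted galectin-binding glycoprotein, was at 658, 646 and 656 FPKM in BRQ, against 537, 520.3 and 517 FPKM in DMSO (log2 fold change 0.32 ± 0.04, adjusted p = 2.70e-05), with a log2 fold change of 0.21 once the span trend was taken out (adjusted p = 1.28e-04). IFI44 was lower, at 85.2, 83.5 and 86.4 FPKM in BRQ, against 127, 128 and 125 FPKM in DMSO (log2 fold change -0.57 ± 0.04, adjusted p = 5.25e-07). Its neighbour IFI44L moved the same way by less (18.7 ± 1.08 FPKM in BRQ and 21.7 ± 0.339 FPKM in DMSO, log2 fold change -0.20 ± 0.05, adjusted p = 0.00698), and did not pass without BRQ libraries 1 and 2 (-0.11, adjusted p = 0.188). SAMD9L, which limits translation, was higher (52.3 ± 2.27 FPKM in BRQ and 43.0 ± 2.83 FPKM in DMSO, log2 fold change 0.28 ± 0.05, adjusted p = 0.00114). SAMD9 beside it was at 101, 103 and 113 FPKM in BRQ, against 110.2, 109.6 and 119 FPKM in DMSO and did not pass (log2 fold change -0.10 ± 0.05, adjusted p = 0.136), but passed as lower under the 3 other scalings, with the span trend taken out (adjusted p = 0.0112) and without BRQ library 3 (adjusted p = 0.0363). XAF1, an antagonist of the apoptosis inhibitor XIAP, had 26.8 ± 1.15 FPKM in BRQ and 25.4 ± 1.52 FPKM in DMSO (log2 fold change 0.07 ± 0.06, adjusted p = 0.271). EPSTI1 had 3.74 ± 0.394 FPKM in BRQ and 3.62 ± 0.204 FPKM in DMSO (log2 fold change 0.04 ± 0.08, adjusted p = 0.718), and its sign turned under the 3 other scalings.

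Members that neighbour each other moved the same way in some stretches and in opposite directions in others. There were 9 stretches in which each member lies within 100 kb of the next, with 23 members in all. Of the 9 stretches, the GBP genes were all higher and IFI44L and IFI44 were both lower. The IFIT, IFITM and MX stretches held members called in both directions, and the other 4 held called members beside members that did not pass. A call beside a member that did not pass does not show that the members differ. Within the stretches 20 ratios of one member to another can be formed, which cancel the library total. The libraries of the 2 groups did not overlap in 17 of these ratios, 8 of them higher and 9 lower in BRQ, and overlapped in 3. The 17 ratios are 85% of the 20. Of the 17732 ratios between any 2 tested genes at most 100 kb apart 66.6% had no overlap, as had 67.2% of single tested genes. The 20 ratios share members and are not independent, and IFIT2 and IFIT5 lie more than 100 kb apart. These shares were not tested against each other. Even with no overlap, an exact permutation test of 3 libraries against 3, two-sided, cannot give a p under 0.1, or 0.118 after Benjamini-Hochberg adjustment over the 20 ratios, so no single ratio passes. The ratio of GBP1 to GBP2 was 3.40, 3.50 and 3.50 in BRQ, against 2.24, 2.18 and 1.85 in DMSO. The ratio of IFITM1 to IFITM3 was 0.615, 0.587 and 0.587 in BRQ, against 0.437, 0.434 and 0.438 in DMSO. The ratio of IFI44L to IFI44 was 0.212, 0.218 and 0.231 in BRQ, against 0.172, 0.166 and 0.175 in DMSO. Each of these sets of 3 libraries is narrow beside the gap between the groups.

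**Figure D3:**
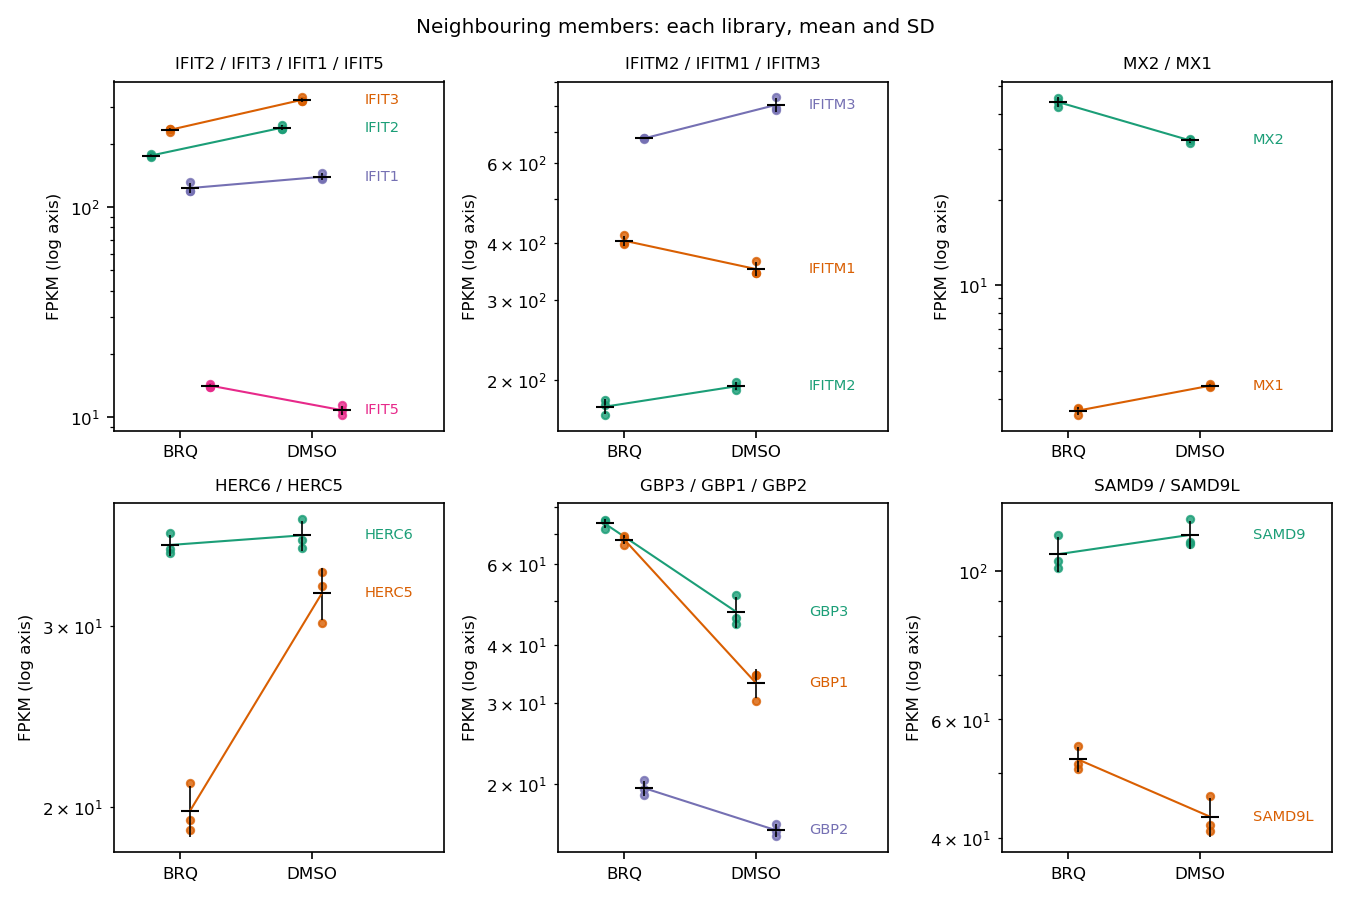
FPKM (y axes, log scale) of members that lie side by side is drawn for each library in BRQ and in DMSO, with the mean and SD of the 3 libraries and a line between the means. MX2 is higher and MX1 lower in BRQ, IFITM1 is higher and IFITM2 and IFITM3 are lower, and the line of IFIT5 runs opposite to those of IFIT1, IFIT2 and IFIT3.

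The main classes by level in DMSO were under 1, 1 to under 10 and 10 FPKM or more. Limits of 5 and 50 FPKM were an alternative. Of the 27 members at 50 FPKM or more in DMSO, 9 were higher (33.3%) and 12 lower (44.4%), against 42.7% and 30.1% of the tested genes at that level. Of the 23 members between 5 and 50 FPKM, 16 were higher (69.6%) and 4 lower (17.4%), against 38.2% and 26.7% of such genes. Of the 4 members under 5 FPKM, 1 was higher and 2 were lower, against 31.8% and 20.0% of such genes. In the main classes, 23 of 48 members at 10 FPKM or more were higher (47.9%) and 16 lower (33.3%), against 40.7% and 27.9% of tested genes. Of the 6 members below 10 FPKM, 3 were higher and 2 lower, against 33.0% and 22.4%. The class under 1 FPKM held 0 members. At 100 FPKM or more, 6 of 19 members were higher (31.6%) and 10 lower (52.6%), against 39.3% and 34.4% of 578 tested genes. The class and the fold change share the DMSO values, so the classes were not tested against each other. Classed by the mean over all 6 libraries, 12 of the 29 members at 50 FPKM or more were higher and 12 lower (41.4% each), against 47.8% and 26.1% of tested genes. By the same mean, 14 of the 22 between 5 and 50 FPKM were higher (63.6%) and 4 lower (18.2%), against 39.7% and 25.3%.

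**Figure D4:**
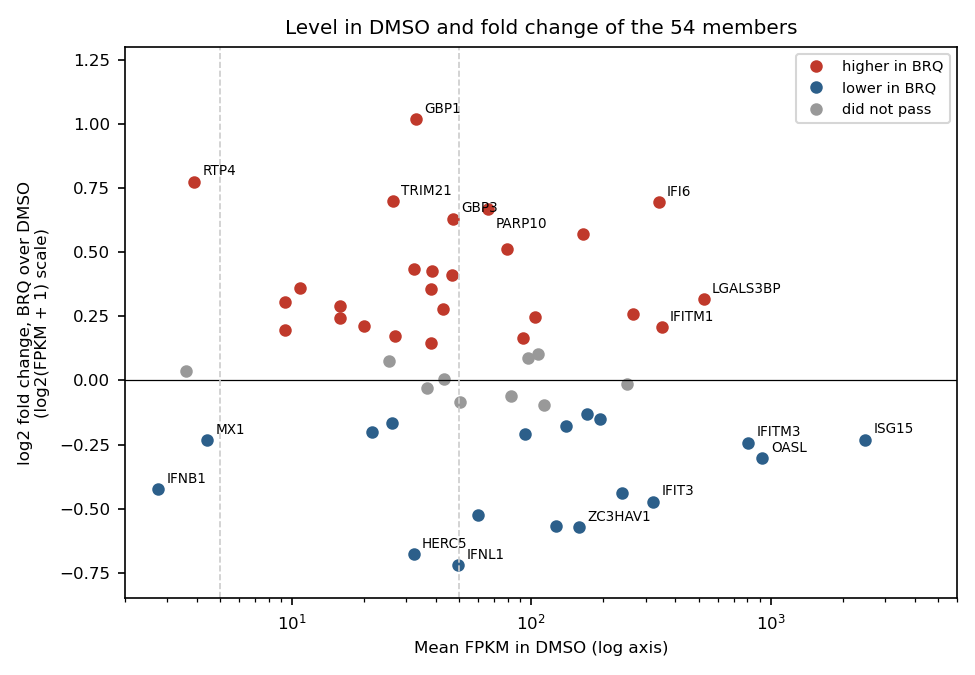
The log2 fold change of each member (y axis, BRQ relative to DMSO, from log2(FPKM + 1)) is drawn against its mean FPKM in the 3 DMSO libraries (x axis, log scale), with dashed lines at the alternative class limits of 5 and 50 FPKM. Right of 50 FPKM there are 9 members called higher and 12 called lower, and between the lines 16 and 4.

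The genes that carry interferon signals were listed separately from the members, 27 in all, and 13 were higher, 3 lower and 11 did not pass. That is 48.1% higher and 11.1% lower, against 36.9% and 25.2% of all tested genes, and the median log2 fold change was 0.14, against 0.06 over all. The counts became 9 higher and 4 lower with median-of-ratios or trimmed-mean scaling. They were 10 and 4 with TPM scaling or with the span trend taken out. Of all 10689 tested genes, 3335 to 3382 were higher and 3160 to 3296 lower under the 3 scalings. With the span trend taken out, 3820 of 10684 genes were higher and 2461 lower. Among receptor chains IL10RB, shared by the lambda interferon receptor, had 29.9 ± 1.20 FPKM in BRQ and 21.1 ± 1.25 FPKM in DMSO (log2 fold change 0.48 ± 0.06, adjusted p = 2.58e-05). The kinase TYK2 had 21.9 ± 0.941 FPKM in BRQ and 14.8 ± 0.102 FPKM in DMSO (log2 fold change 0.53 ± 0.05, adjusted p = 7.26e-06), and JAK1 had 34.0 ± 0.579 FPKM in BRQ and 30.9 ± 1.42 FPKM in DMSO (log2 fold change 0.14 ± 0.05, adjusted p = 0.0289). The JAK1 call was lost under the 3 other scalings and without BRQ library 2 (adjusted p = 0.0856), BRQ library 3 (adjusted p = 0.0524), DMSO library 1 (adjusted p = 0.104) or DMSO library 2 (adjusted p = 0.0940). With BRQ libraries 1 and 2 left out it did not pass either (adjusted p = 0.174), and was 0.47 with the span trend taken out (adjusted p = 9.77e-06). Of the parts of ISGF3, STAT2 had 44.2 ± 1.85 FPKM in BRQ and 33.8 ± 0.494 FPKM in DMSO (log2 fold change 0.38 ± 0.05, adjusted p = 3.84e-05) and IRF9 had 38.3 ± 2.08 FPKM in BRQ and 33.4 ± 1.70 FPKM in DMSO (log2 fold change 0.19 ± 0.06, adjusted p = 0.0101). The IRF9 call was lost under median-of-ratios scaling (adjusted p = 0.0552) and trimmed-mean scaling (adjusted p = 0.0528). It was also lost with the span trend taken out (0.08, adjusted p = 0.189) and without BRQ libraries 1 and 2 (0.11, adjusted p = 0.215). IRF1, which drives GBP genes, was at 72.6, 70.9 and 71.7 FPKM in BRQ, against 39.2, 40.9 and 38.3 FPKM in DMSO (log2 fold change 0.85 ± 0.04, adjusted p = 1.13e-07). IRF7, which drives interferon genes, was at 83.5, 73.8 and 72.8 FPKM in BRQ, against 51.1, 47.5 and 45.7 FPKM in DMSO (log2 fold change 0.66 ± 0.06, adjusted p = 5.25e-06), whereas IRF2, a repressor at the same elements, was lower (3.09 ± 0.297 FPKM in BRQ and 5.00 ± 0.248 FPKM in DMSO, log2 fold change -0.56 ± 0.08, adjusted p = 1.19e-04). The groups of IRF1 and IRF7 lay far apart. SOCS1, which inhibits the JAK kinases, was higher (11.8 ± 0.674 FPKM in BRQ and 6.24 ± 0.456 FPKM in DMSO, log2 fold change 0.82 ± 0.07, adjusted p = 3.12e-06). The sensor TLR3 was higher (8.27 ± 0.182 FPKM in BRQ and 5.95 ± 0.190 FPKM in DMSO, log2 fold change 0.42 ± 0.06, adjusted p = 1.53e-04). STING1, the adaptor of cytosolic DNA sensing, was lower (41.4 ± 1.91 FPKM in BRQ and 56.7 ± 3.04 FPKM in DMSO, log2 fold change -0.44 ± 0.05, adjusted p = 3.25e-05), and so was RIGI, the RNA sensor RIG-I (138 ± 3.74 FPKM in BRQ and 161 ± 1.81 FPKM in DMSO, log2 fold change -0.22 ± 0.04, adjusted p = 4.50e-04).

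**Figure D5:**
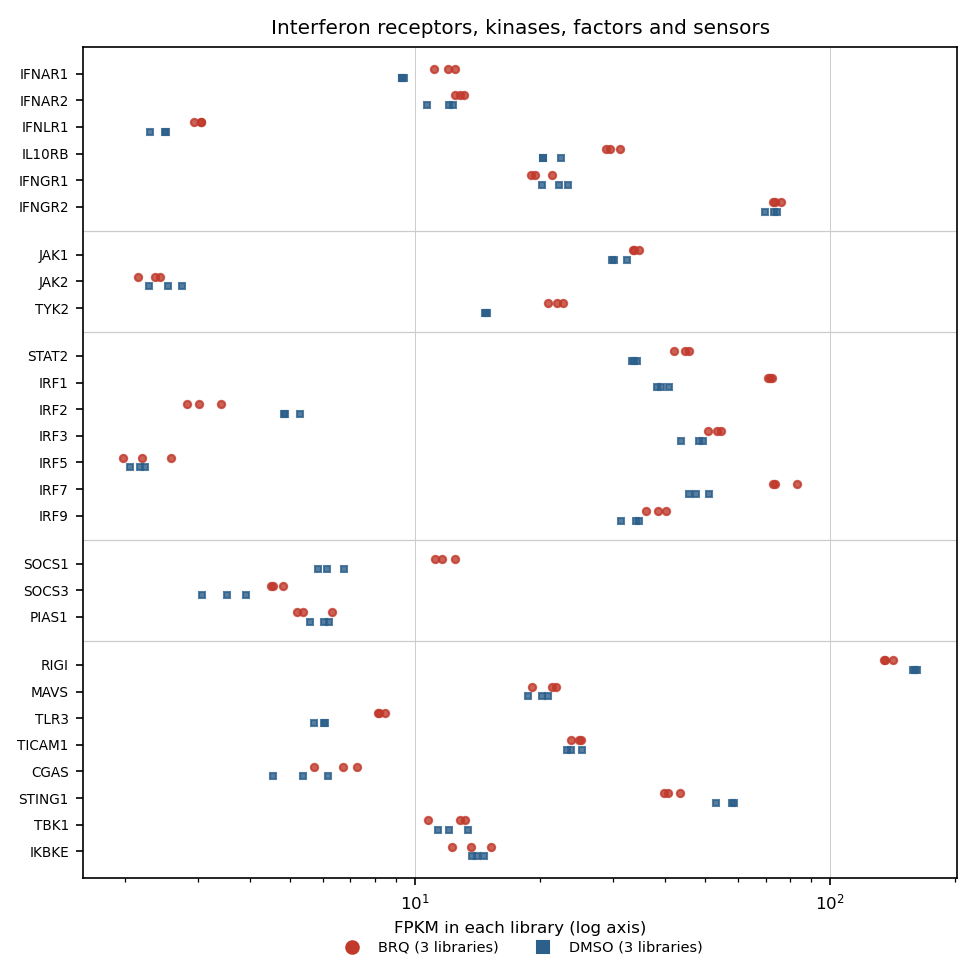
FPKM (x axis, log scale) of 27 genes of interferon receptors, kinases, factors, negative regulators, sensors and adaptors is drawn for each of the 3 BRQ libraries (circles) and 3 DMSO libraries (squares). IRF1, IRF7, TYK2 and SOCS1 lie to the right in BRQ, and IRF2, STING1 and RIGI to the left.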

How the data were processed

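The authors deposited one table of FPKM values per gene and library, with pathway names. Per the submitters' processing notes, which list tools without their steps, the trimmer fastp, the counter HTSeq and the build hg38 were used. No source used here gives the strand, the aligner or the gene lengths. FPKM is not a count, so log2(FPKM + 1) of the 10689 genes averaging 1 FPKM or more was tested with limma 3.58.1 (R 4.3.3, eBayes with trend, two-sided, Benjamini-Hochberg adjustment over all of them, adjusted p of 0.05), with treatment as the sole term. On simulated data of these 10689 genes, with 200 changed in 3 libraries against 3, it recovered 90% of 1.5-fold and 99% of 2-fold changes. Of the simulated calls 5.03% were false. The simulated noise was independent between genes, without a shift of a whole library, whereas 62.1% of the real genes were called. These rates therefore need not hold for the real calls. Positions, promoters and overlaps come from RefSeq (GRCh38.p14), to which 16158 of 16197 genes matched by Entrez number. Exact tests used SciPy 1.17.1.

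Values in every library are given for both interferons, for members past the threshold with a log2 fold change of at least 0.4 in size and for members at 100 FPKM or more in DMSO. Other members have their means. The signalling genes named are those past both limits, with STAT2, IRF9, JAK1 and TYK2. Some genes of that list are not reported here. RIGI was named to complete a count of 3, after its value was seen. The members, lists and alternatives were chosen with earlier results of these data known, and the neighbour ratios and pathway counts after the values were seen. The results were recomputed with median-of-ratios, trimmed-mean and TPM scaling, a pseudocount of 0.1, filters of 0 and 5 FPKM, a replicate block, a robust prior, removal of each library's trend with gene span, other level classes and with libraries left out.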

Additional observations from a re-analysis of the deposited data

How the results depend on the processing

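Of the 44 members called, 32 kept their call and direction under every alternative, and 12 lost it under at least one. How many of all called genes kept theirs was not counted. Directions turned without passing the threshold for HERC6 (0.0211 with the span trend removed and 0.0073 without BRQ libraries 1 and 2), for XAF1 (-0.0098), IFITM1 (-0.0083) and SP100 (0.0371) with the span trend removed, and for PLSCR1 (0.0122), SAMD9 (0.0012) and OAS3 (0.0338) without BRQ libraries 1 and 2. Under scaling by median-of-ratios, to TPM and by trimmed mean, ISG20 went to -0.0602, -0.0529 and -0.0577, and EPSTI1 to -0.0164, -0.0117 and -0.0144. ISG20 was also at -0.0772 with the span trend removed. Leaving out each library in turn gave log2 fold changes of -0.052 to 0.0475 for OAS3, -0.0143 to 0.0337 for ISG20 and -0.0313 to 0.0783 for EPSTI1. The causes of these turns were not tested. With each library left out in turn, 23 to 25 members were higher and 17 to 19 lower. Of all 10689 tested genes, 3610 to 3793 were higher and 2414 to 2611 lower in these fits.

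Of members under 10 FPKM in DMSO, those lower numbered 1 with no filter, 0 with a mean of at least 5 FPKM, which leaves fewer of them tested, 0 without BRQ libraries 1 and 2, and 1 to 2 without each library in turn. With class limits of 5 and 50 FPKM, 9 members of the upper class and 1 of the lower class were higher, and 1 of those under 10 FPKM was higher when classed by the mean over all 6 libraries, in both cases because other members fill the class. Libraries of the same number were not shown to be paired, since their deviations correlated at 0.144, 0.00804 and 0.0584 and BRQ library 2 correlated best with DMSO library 3. With the replicate block 27 members were higher and 19 lower (4030 and 2769 of all genes), since IFIH1 (adjusted p = 0.0357) and SAMD9 (adjusted p = 0.0380) passed as well. Depth limits IFNB1 most, at 32 fragments in its lowest library. Gene lengths were not stated, so levels of different members are comparable only as far as the authors' lengths are right.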

Other observations

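The deposited table also names pathways for its genes, and its term for type I interferon signaling held 24 tested members and 24 tested genes that are no members. Of these other genes 16 were higher, 2 were lower and 6 did not pass, against 36.9% higher and 25.2% lower among all tested genes, with a median log2 fold change of 0.27. Of the members in the term 8 were higher and 11 lower, with a median of -0.04. With HLA genes left out as well, 11 of the 19 other genes were higher and 2 lower. For the interferon-gamma term, 22 of 37 genes that are no members were higher and 4 lower, against the same 36.9% and 25.2%. With HLA genes left out as well, 16 of the 30 other genes were higher and 4 lower. Of the 10 members in the interferon-gamma term 4 were higher and 4 lower. For the term on defense against virus, 44 of 105 other genes were higher and 27 lower, again against 36.9% and 25.2% of all tested genes. Of its 35 members 14 were higher and 15 lower. Under the 3 other scalings the other genes of the type I term were 13 to 14 higher and 2 lower, and its members 8 higher and 12 lower. For the interferon-gamma term they were 18 higher and 6 lower, with members 3 to 4 higher and 5 lower. For the virus term they were 36 higher and 30 lower, with members 11 to 12 higher and 16 to 17 lower. Of all 10689 tested genes, 3335 to 3382 were higher and 3160 to 3296 lower under these scalings. The difference between members and other genes of a term was not tested, and the terms were counted after the values were seen.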
